A study of Mus musculus with 6 samples.

Results

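The transcripts described here are those of 43 genes of the autophagy machinery, among 41388 gene identifiers counted in mouse liver. They were taken from a given list of genes for autophagy initiation, conjugation, cargo capture and mitophagy, and all 43 were matched by symbol to an Ensembl identifier. RNA-seq was done on 6 liver libraries from mice of the mixed C57BL and 129S6/SvEv background at 6 weeks of age, fed a chow with 16 ppm copper. There were 3 wild type and 3 Atp7b-/- libraries, and Atp7b encodes a copper-exporting ATPase whose loss in people causes Wilson disease. No label used here says which exons the Atp7b allele removes, so its transcript level is only a partial check of genotype. Reads were 54 bases long, paired-end in wild type replicate 1 and Atp7b-/- replicate 3 and single-end in the other 4 libraries. The labels give wild type replicate 1 and Atp7b-/- replicates 1 and 2 as male, and the other 3 libraries as female. By these labels both genotypes include males and females, so the libraries of a genotype did not all come from the same animal. Within a layout, however, labelled sex follows genotype. The single-end libraries are labelled female in wild type and male in Atp7b-/-, and the paired-end ones the reverse. A genotype difference within a layout can therefore not be told apart from a difference between labelled sexes. Nothing says that each library came from its own animal, so the p-values describe the spread among libraries, which may be partly technical.

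Autophagy encloses parts of the cytoplasm in a double membrane and delivers them to the lysosome. The ULK1 kinase complex starts the process, a lipid kinase complex around the proteins encoded by Pik3c3 and Becn1 marks the growing membrane, and the ATG9 and ATG2 proteins bring vesicles and lipid to it. A pair of ubiquitin-like conjugation systems then attaches proteins of the LC3 and GABARAP family to the membrane, where cargo receptors such as the product of Sqstm1 bind them. In hepatocytes the pathway supplies amino acids and lipid during fasting and removes worn mitochondria, and the transcription factors TFEB and TFE3 are known to switch on many of its genes.

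Total counts ran from 5919389 to 25973968 per library, with the paired-end libraries the deepest. Transcripts of Atp7b were 3.31-fold lower in Atp7b-/- livers (adjusted p = 0.02 in edgeR's quasi-likelihood test), and the metal-binding Mt1 and Mt2 were 12.6-fold and 15.8-fold higher (adjusted p = 0.0337 and 0.00101). Hepatocyte markers fixed for this work (8 genes, among them Alb and Apoa1) summed to 84700 to 106000 CPM, the counts scaled to a common library size, in wild type and 53300 to 70800 CPM in Atp7b-/- libraries, so that the ranges did not overlap, and none of the 8 was called. Alb was the most abundant of the 8, and its own ranges overlapped (42900 to 77700 against 27700 to 49900 CPM). The summed CPM of 8 Kupffer cell markers was 171 to 338 against 193 to 257, that of 8 sinusoidal endothelial markers 236 to 717 against 218 to 588, and that of 8 stellate cell markers 292 to 520 against 349 to 428, in each case wild type against Atp7b-/-. The 5 red blood cell markers summed to 66.4 to 220 and 236 to 344 CPM. By mean CPM Alas2 was the most abundant of them, and its own ranges overlapped (12.4 to 191 and 184 to 281 CPM). Biliary markers (6 genes) summed to 21.8 to 51.4 and 29.2 to 78 CPM, lymphoid and neutrophil markers (8 genes, 1 of them at 0 in every library) to 10.4 to 25.4 and 9.33 to 21.5 CPM, and pancreatic acinar markers (7 genes, 3 of them at 0) to 11 to 22.2 and 21.9 to 41.6 CPM, with 1 acinar marker called. The called marker was Spink1, at a low level (0 to 0.0457 CPM in wild type and 0.933 to 1.41 CPM in Atp7b-/- libraries). Mitochondrially encoded genes took 7.74% and 8.14% of the counts of the paired-end libraries (wild type and Atp7b-/-), 2.5% and 2.57% for single-end wild type and 4.09% and 4.15% for single-end Atp7b-/- livers. The part of these differences in the values below was not tested. In bulk tissue, fewer cells of a type and less RNA per cell cannot be told apart.

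None of the 43 genes passed the test between genotypes. All 43 were abundant enough to be tested, and edgeR's quasi-likelihood test with the sequencing layout as a covariate called 0 of them at an adjusted p under 0.05, where 2.49% of the 12988 genes tested were called (1.90% with higher and 0.585% with lower levels in Atp7b-/- livers). Limma-voom also called 0 (2.70% of all genes), and DESeq2 called 3, all lower (6.98%, against 5.93% of all genes in either direction and 2.33% lower). The adjusted p-values of the 43 genes ran from 0.107 to 0.993. At an unadjusted p under 0.05 there were 6 genes (14%), against 14.5% of all genes tested. Of these, 5 had lower levels in Atp7b-/- livers (11.6%, against 6.74% of all genes), namely Ulk1, Tfeb, Atg2a, Atg4d and Calcoco1, and 1 had a higher level, Atg12 (2.33%, against 7.80%). The log2 fold change was negative in 24 genes (55.8%, against 50.9% of all genes) and positive in 19 (44.2%, against 49.1%). Its median was -0.03, beside -0.01 over all genes tested, and the median size of the change was 0.25, beside 0.27. The share in either direction and both medians were near the background, whereas by direction the unadjusted share was above it for lower and below it for higher levels, and the DESeq2 share for lower levels was above it. These directional shares rest on 1 to 5 genes each.

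The precision differed between the genes. Standard errors (SE) of the log2 fold change lay between 0.17 and 0.45. For 32 of the 43 genes the 95% interval of the difference stayed within a log2 change of 1 in either direction, and for 11 it reached further. For these 11 a change of more than 2-fold is within the interval. In the plot of intervals by role, the lines of Ulk1, Atg2a, Atg4d, Calcoco1 and Tfeb lie to the left of 0 and that of Atg12 to the right.

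**Figure D1:**
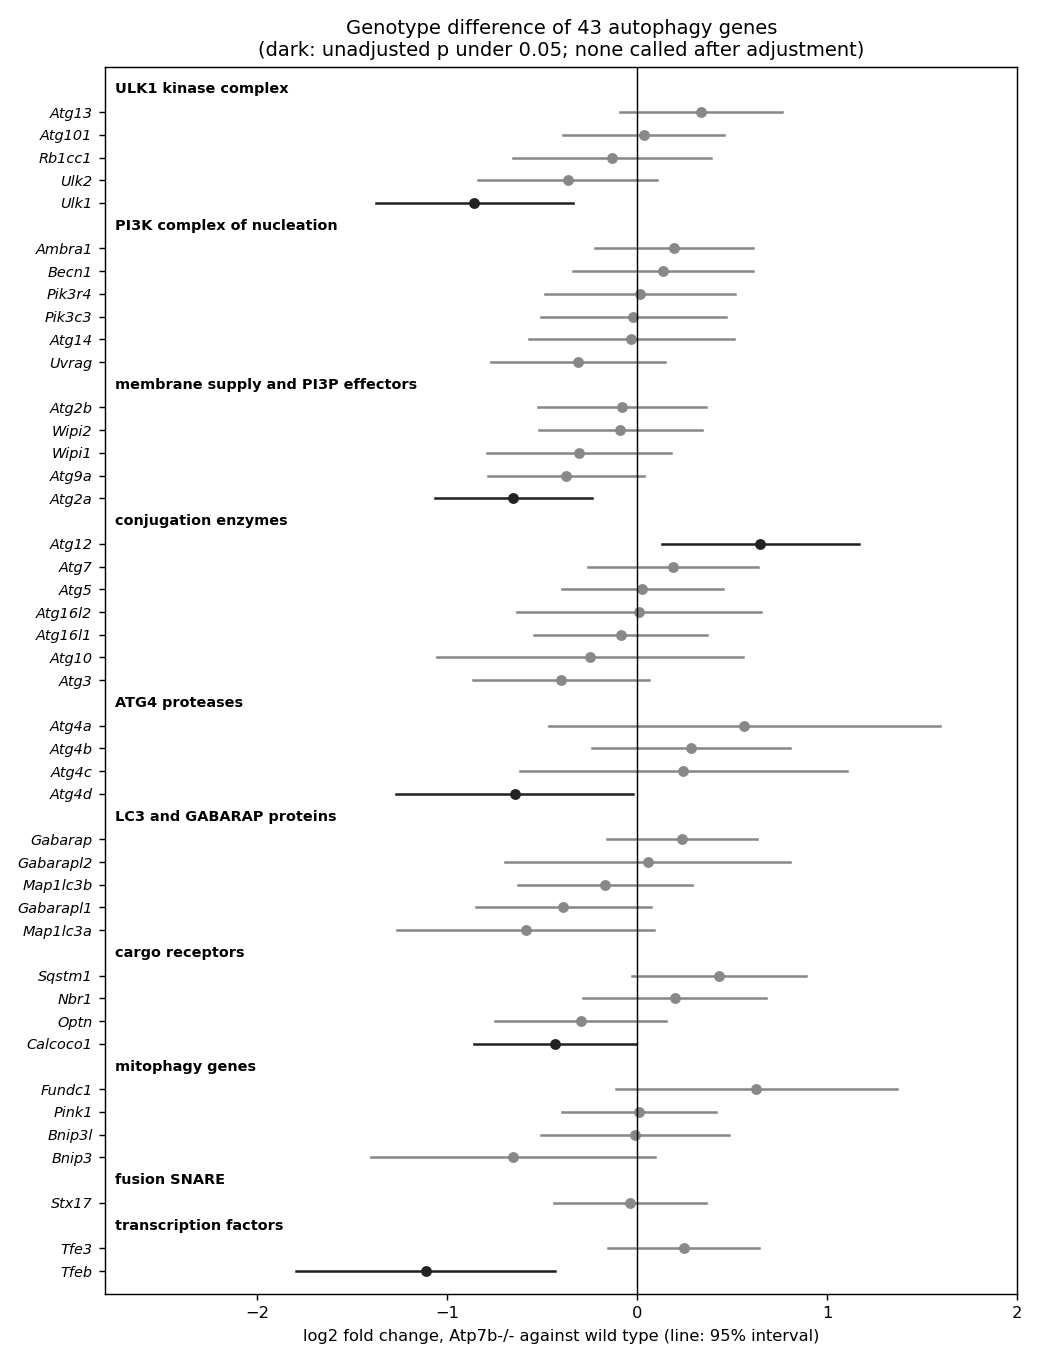
Log2 fold change between Atp7b-/- and wild type liver (x axis) for the 43 autophagy genes (y axis), grouped by role, with points for the estimate of edgeR and lines for the 95% interval. The estimates run from -1.11 (Tfeb) to 0.65 (Atg12), and 37 of the 43 intervals include 0.

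Ulk1, Atg2a and Tfeb had the smallest p-values of the 43 genes, and DESeq2, the second count test that was run, called them lower. The windows in front of their annotated starts are printed for that reason, and the window of Atg3 is added. Among the windows at hand for 36 of the 43 genes, it holds most copies of the core letters to which TFEB and TFE3 bind. Each printed window is the 250 bases before a RefSeq start (GRCm38.p6), 5′ to 3′ on the gene's strand, with capitals marking CACGTG. The windows lie at chr5:110810082-110810331 on the minus strand for Ulk1, and on the plus strand at chr19:6241418-6241667 for Atg2a, chr17:47736787-47737036 for the first of the 3 starts listed for Tfeb, and chr16:45158579-45158828 for Atg3.
Ulk1: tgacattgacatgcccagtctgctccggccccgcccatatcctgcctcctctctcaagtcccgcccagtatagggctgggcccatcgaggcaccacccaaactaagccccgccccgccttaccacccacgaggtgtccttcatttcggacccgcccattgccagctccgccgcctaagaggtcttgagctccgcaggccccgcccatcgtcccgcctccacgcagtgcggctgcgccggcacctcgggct
Atg2a: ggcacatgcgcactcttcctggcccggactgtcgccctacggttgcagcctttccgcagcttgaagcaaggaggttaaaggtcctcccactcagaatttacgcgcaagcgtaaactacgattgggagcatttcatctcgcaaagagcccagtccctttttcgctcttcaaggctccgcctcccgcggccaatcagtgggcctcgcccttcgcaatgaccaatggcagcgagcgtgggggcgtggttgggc
Tfeb: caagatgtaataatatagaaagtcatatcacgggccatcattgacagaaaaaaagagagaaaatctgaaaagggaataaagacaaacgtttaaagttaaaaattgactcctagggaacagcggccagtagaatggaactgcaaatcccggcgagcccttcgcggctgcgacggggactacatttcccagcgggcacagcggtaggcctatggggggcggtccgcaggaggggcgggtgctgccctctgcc
Atg3: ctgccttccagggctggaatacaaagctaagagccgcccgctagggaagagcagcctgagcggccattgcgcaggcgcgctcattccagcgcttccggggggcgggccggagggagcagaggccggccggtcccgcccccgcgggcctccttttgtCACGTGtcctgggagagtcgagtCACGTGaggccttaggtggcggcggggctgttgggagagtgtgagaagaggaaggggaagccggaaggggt

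A window of this kind was at hand for 36 of the 43 genes, matched by symbol. The 6 letters CACGTG, searched on both strands, were found in windows of 4 of these 36 (11.1%), Atg3, Atg5, Atg7 and Bnip3. They were found in windows of 6.86% of all 27025 genes with such a window. The window of Atg7 (chr6:114670846-114671095, plus strand) precedes an internal start and lies inside the annotated gene, which begins at 114643097. Windows of other genes also lie inside the annotated gene, among them those of Wipi1, Wipi2, Atg4b and Atg14. The same holds for the windows of the Tfeb starts after the printed one. The longer form TCACGTGA, which contains those 6 letters, was found in front of Atg3 alone (2.78%, against 0.907% of all genes). The windows of Ulk1, Atg2a and Tfeb, all 3 starts of Tfeb included, do not hold the 6 letters. The match is a description of letters in these windows, and Atg3, with a log2 fold change of -0.40 (adjusted p = 0.422), did not pass the test.

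Among the 5 genes of the ULK1 kinase complex, none was called. Ulk1 (ENSMUSG00000029512, chromosome 5, 110784488 to 110810097, GRCm38), the kinase that starts autophagy, was measured at 107, 264 and 276 CPM in wild type replicates 1 to 3 and at 190, 176 and 39.1 CPM in Atp7b-/- replicates 1 to 3. Within each layout the Atp7b-/- values were the lower ones, 39.1 against 107 CPM in the paired-end libraries and 176 and 190 against 264 and 276 CPM in the single-end ones, while across layouts the genotypes overlapped. Its log2 fold change was -0.86 (SE 0.23, 95% interval -1.38 to -0.34), a 1.81-fold lower level, at an adjusted p of 0.107. DESeq2 gave -0.87 with an adjusted p of 0.0142. Without the filter on low counts edgeR's test also called it (adjusted p = 0.0134).

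Ulk2, the close relative of Ulk1, had 80.6, 51.7 and 73.4 CPM in wild type livers and 45.4, 56.5 and 56.7 CPM in Atp7b-/- livers, with a log2 fold change of -0.37 (adjusted p = 0.476). Atg13, the adaptor that links the kinase to its scaffold, was the only one of the 43 genes whose CPM ranges did not overlap over all 6 libraries (2.33%, against 8.51% of all genes). It stood at 57.1, 56.9 and 69 CPM in wild type livers and at 71.9, 72.4 and 86.7 CPM in Atp7b-/- livers. The gap between the highest wild type and the lowest Atp7b-/- library was small, and the log2 fold change of 0.34 (SE 0.19, interval -0.09 to 0.76) did not pass the test (adjusted p = 0.473). The scaffold gene Rb1cc1 and the stabilising subunit gene Atg101 had log2 fold changes of -0.13 and 0.03. Rb1cc1 was 110 and 84.1 CPM in the paired-end and 14.8 to 21.9 CPM in the single-end libraries, so that its values were parted by layout.

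None of the 6 genes of the lipid kinase complex was called. Their log2 fold changes lay between -0.31 (Uvrag) and 0.19 (Ambra1), with adjusted p-values of 0.536 to 0.987, and all 6 intervals stayed within a log2 change of 1. Becn1, the scaffold of the complex, stood at 78.9, 53 and 48.9 CPM in wild type livers and 68.4, 65.1 and 61.5 CPM in Atp7b-/- livers. All 3 Atp7b-/- values fell inside the wild type range. The catalytic subunit gene Pik3c3 (15.2 to 25.3 CPM in wild type, 18.7 to 20.5 CPM in Atp7b-/-) and Atg14, which directs the complex to autophagy (16.5 to 22.8 and 15.5 to 23.4 CPM), also overlapped. The regulatory subunit gene Pik3r4 had a log2 fold change of 0.01 (interval -0.49 to 0.52).

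All 5 genes of membrane supply and of the proteins that read the lipid mark had negative log2 fold changes, and none was called. The changes of Atg2b and Wipi2 were near 0 and took the other sign when some single libraries were left out. Atg2a, a lipid transfer protein (ENSMUSG00000024773, chromosome 19, 6241668 to 6262335), stood at 48.2, 169 and 196 CPM in wild type livers and 107, 122 and 31.6 CPM in Atp7b-/- livers. As for Ulk1, each Atp7b-/- library was below the wild type libraries of its own layout. Its log2 fold change was -0.65 (SE 0.18, interval -1.06 to -0.24, adjusted p = 0.122), and in DESeq2 -0.67 (adjusted p = 0.0107). Its relative Atg2b had 47.4 to 58.7 CPM in wild type livers and 43.5 to 56.2 CPM in Atp7b-/- livers (log2 fold change -0.08). Atg9a, the membrane protein of the vesicles, was also below its layout's wild type values in each Atp7b-/- library (60.6 and 55.4 against 81 and 82.3 CPM single-end, 31.4 against 34.6 CPM paired-end), with a log2 fold change of -0.37 (adjusted p = 0.395). Wipi1 and Wipi2, which bind the lipid mark, had changes of -0.31 and -0.09.

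Among the 7 conjugation genes, Atg12 had the lowest p. Atg12, the ubiquitin-like protein that is joined to ATG5 (ENSMUSG00000032905), was at 12.9 and 11.1 CPM in the single-end wild type and at 23.1 and 23.4 CPM in the single-end Atp7b-/- libraries. In the paired-end libraries the values were closer, 41.5 CPM in wild type livers and 44.7 CPM in Atp7b-/-. The log2 fold change was 0.65 (SE 0.23, interval 0.13 to 1.17), and the adjusted p of 0.229 missed the threshold. Its partner gene Atg5 had 19 to 66 CPM in wild type livers and 21.5 to 57.4 CPM in Atp7b-/- livers, a log2 fold change of 0.03. Atg7, the activating enzyme of both systems, stood at 0.19, and Atg16l1, which sets the site of attachment, at -0.09. Atg3, the conjugating enzyme of the LC3 branch, had 70.5, 87.9 and 114 CPM in wild type livers and 61.9, 83.6 and 58.6 CPM in Atp7b-/- livers. For the remaining conjugation genes, Atg10 and Atg16l2, the log2 fold changes were -0.25 and 0.01.

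The ATG4 proteases, which trim LC3 and GABARAP proteins before attachment and release them afterwards, had the largest median SE of the groups by role (0.33). Atg4a had only 2 counts in wild type replicate 3 and 22 counts in wild type replicate 2 and in Atp7b-/- replicate 2, and its interval ran from -0.47 to 1.59. Atg4d was at 22.1, 57.4 and 102 CPM in wild type livers and at 36.4, 59.8 and 15.8 CPM in Atp7b-/- livers, with overlap within the single-end libraries. The log2 difference of -0.65 (SE 0.28) had an adjusted p of 0.325. Atg4b and Atg4c stood at 0.28 and 0.24.

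**Figure D2:**
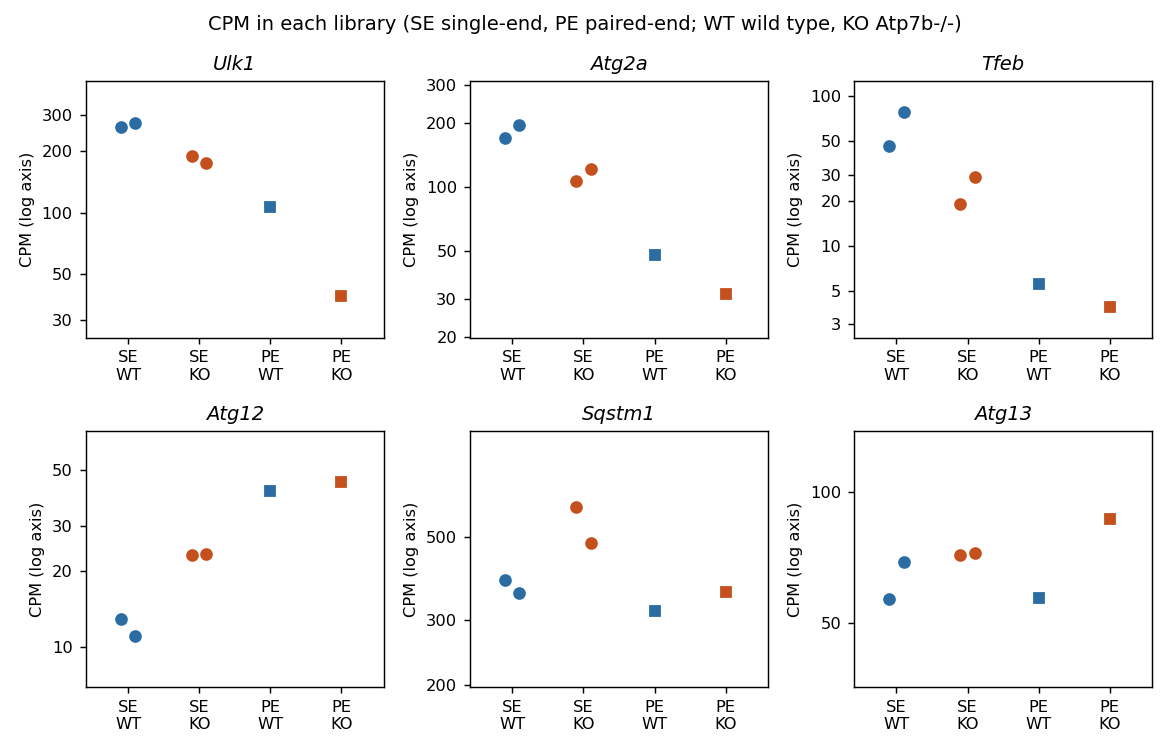
CPM (y axis, log scale) of 6 autophagy genes in each of the 6 libraries, by layout and genotype on the x axis, where each point is 1 library. Ulk1, Atg2a and Tfeb lie lower in Atp7b-/- than in wild type within each layout and lower in the paired-end libraries, whereas Atg12 lies higher in the paired-end libraries.

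No LC3 or GABARAP gene was called. Levels between genes were compared as TPM, which divides each count by the exon length of the gene before scaling. Gabarapl1 held the largest share of the summed TPM of the 5 family members in every library, 65.7% ± 6.69 in wild type and 61.9% ± 7.67 in Atp7b-/- livers (SD, n = 3 each). It stood at 423, 645 and 581 CPM in wild type livers and at 541, 510 and 257 CPM in Atp7b-/- livers, a log2 difference of -0.39 (SE 0.20, adjusted p = 0.435). Gabarap took 15% ± 6.8 and 21.9% ± 10.7 of the summed TPM, with 136, 95.9 and 92.3 CPM in wild type livers and 117, 111 and 152 CPM in Atp7b-/- livers (log2 fold change 0.24, adjusted p = 0.595). Within each layout its Atp7b-/- values were the higher ones. Gabarapl1 had the opposite order, and neither difference passed the test.

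Map1lc3a, another LC3 gene, varied widely between libraries of 1 genotype, with 20.3, 69.8 and 162 CPM in wild type livers and 74.6, 69.3 and 15.5 CPM in Atp7b-/- livers. Its log2 fold change of -0.59 (interval -1.26 to 0.09) was not called (adjusted p = 0.419). Map1lc3b, whose product is the usual marker of autophagosomes, stood at 80.7, 55.4 and 48.7 CPM in wild type livers and 51.4, 56 and 53.6 CPM in Atp7b-/- livers, a log2 fold change of -0.17 (interval -0.63 to 0.29). Its TPM is lowered by an annotated exon length of 7517 bases, against 1181 bases for Map1lc3a. Gabarapl2 was measured at 27.3 and 24 CPM in the paired-end and at 2.97 to 6.86 CPM in the single-end libraries, so that its place in the family differed between layouts.

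**Figure D3:**
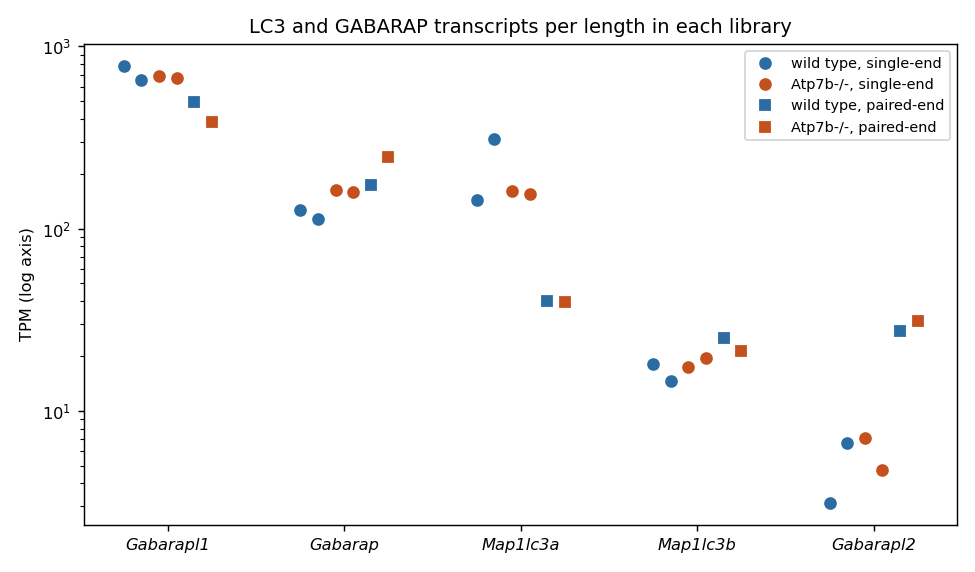
TPM (y axis, log scale) of the 5 LC3 and GABARAP genes (x axis) in each library, with circles for single-end and squares for paired-end libraries, blue for wild type and orange for Atp7b-/-. Gabarapl1 lies between 383 and 781 TPM, while Gabarapl2 and Map1lc3a are separated by layout.

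Of the cargo receptor genes, Sqstm1, which encodes the ubiquitin-binding receptor p62, was the most abundant per length and second to Gabarapl1 among all 43 genes by mean TPM. It was at 316, 384 and 353 CPM in wild type livers and at 603, 482 and 357 CPM in Atp7b-/- livers. Within each layout the Atp7b-/- values were higher, although the paired-end Atp7b-/- library lay within the wild type range. The log2 fold change was 0.43 (SE 0.20, interval -0.03 to 0.89) and the adjusted p was 0.383. The receptor genes Nbr1 and Optn had changes of 0.20 and -0.30. Calcoco1, a receptor gene linked to turnover of the endoplasmic reticulum, was at 33.7, 97.6 and 106 CPM in wild type livers and 87.4, 66.1 and 24 CPM in Atp7b-/- livers (log2 fold change -0.43, SE 0.19, adjusted p = 0.333).

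The mitophagy genes showed no call. Pink1, the kinase that labels damaged mitochondria, was at 111, 240 and 256 CPM in wild type livers and at 238, 237 and 123 CPM in Atp7b-/- livers, with a log2 fold change of 0.01 (interval -0.40 to 0.41). Within each layout the genotypes were close to each other. Bnip3, an outer membrane receptor that is known to respond to low oxygen, had 166, 47.9 and 43.2 CPM in wild type livers and 28, 50.5 and 58.8 CPM in Atp7b-/- livers. The single-end libraries overlapped, and the paired-end wild type library stood above all others. The log2 difference was -0.65 (SE 0.33, interval -1.40 to 0.09, adjusted p = 0.415). The related receptor gene Bnip3l stood at -0.01, and Fundc1, a receptor gene on the X chromosome with 12 to 461 counts per library, at 0.63 (interval -0.11 to 1.37). Stx17, the SNARE of autophagosome fusion, had a log2 fold change of -0.04 (interval -0.44 to 0.36).

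The transcription factor genes Tfeb and Tfe3 had changes of opposite sign. Tfeb (ENSMUSG00000023990, chromosome 17, 47737030 to 47792419) was at 5.53, 46.7 and 79.3 CPM in wild type livers and at 19.2, 28.9 and 3.89 CPM in Atp7b-/- livers. Each Atp7b-/- library was below the wild type libraries of its layout, by a small margin in the paired-end ones. Its log2 fold change was -1.11 (SE 0.30, interval -1.80 to -0.43), the largest in size of the 43 genes, with an adjusted p of 0.113. DESeq2 gave -1.13 with an adjusted p of 0.0275, and edgeR's test without the filter on low counts an adjusted p of 0.000399. Tfe3 was at 19.7, 42 and 42.4 CPM in wild type livers and at 47, 47.1 and 26.3 CPM in Atp7b-/- livers, higher within each layout, a log2 difference of 0.25 (SE 0.18, adjusted p = 0.58). The difference between the changes of Tfeb and Tfe3 was not tested.

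Counting over the list, 7 genes were lower in Atp7b-/- livers in both layouts with no overlap within a layout (16.3%, against 14.1% of all genes): Ulk1, Atg2a, Atg9a, Atg3, Gabarapl1, Calcoco1 and Tfeb. In the other direction there were 5 (11.6%, against 15.1%): Atg13, Atg12, Gabarap, Sqstm1 and Tfe3. Both shares were close to those of all genes. A genotype difference that itself differed between layouts was called in 0 of 43 genes by edgeR's test (1 at an unadjusted p under 0.05, against 0.0154% and 4.57% of all genes). That test sets 1 library against 1 beside 2 against 2 and called 2 of all 12988 genes, so it does not show that the layouts gave the same differences. The estimated log2 difference between layouts was -1.20 for Atg4a and -0.90 for Ulk1. Opposite signs in the 2 layouts were seen in 17 of the 43 genes, a count that was not made over all genes. Because labelled sex follows genotype in opposite directions in the 2 layouts, that test is also the test of a difference between labelled sexes.

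These genes differed more between the sequencing layouts than between the genotypes. In the same fit 26 of the 43 genes differed between paired-end and single-end libraries (60.5%, against 52.8% of all genes), 12 higher (27.9%, against 27.2%) and 14 lower (32.6%, against 25.7%) in paired-end. In 36 genes the layout difference was larger in size than the genotype difference. The same count was not made over all genes tested, so it is not read as a trait of these genes. On the log2 scale the layout difference ran from -3.05 for Tfeb to 2.84 for Atg4a. Across the 43 genes it followed the GC content of the longest annotated transcript, from 38.8% for Fundc1 to 63.2% for Tfeb, with a Pearson r of -0.87 and a Spearman rho of -0.88. Over the 12930 genes with a GC value r was -0.70. These are correlations across genes that share the same 6 libraries, so the genes are not independent replicates. The paired-end libraries also had the highest total counts and the highest mitochondrially encoded share (7.74% and 8.14%, against 2.5% to 4.15%). What layout itself contributed cannot be told apart from these and was not tested.

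The genotype difference had a weaker relation to GC content over the 43 genes (r = -0.43, rho = -0.29), seen in the single-end libraries (r = -0.50) and not in the paired-end ones (r = -0.08). Over all genes tested, r was -0.17 for the genotype difference, -0.27 in the single-end and 0.05 in the paired-end libraries. Tfeb, Atg2a and Ulk1 have a GC content of 63.2%, 60% and 58%, against a median of 50.4% over the list. With an offset that smooths each library on GC content, added after the data were seen, the log2 fold change was -0.73 for Tfeb, -0.43 for Atg2a and -0.71 for Ulk1 (edgeR adjusted p = 0.134, 0.294 and 0.261). With the same offset DESeq2 no longer called any of the 3 (adjusted p = 0.0674, 0.211 and 0.176), nor any other of the 43 genes.

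**Figure D4:**
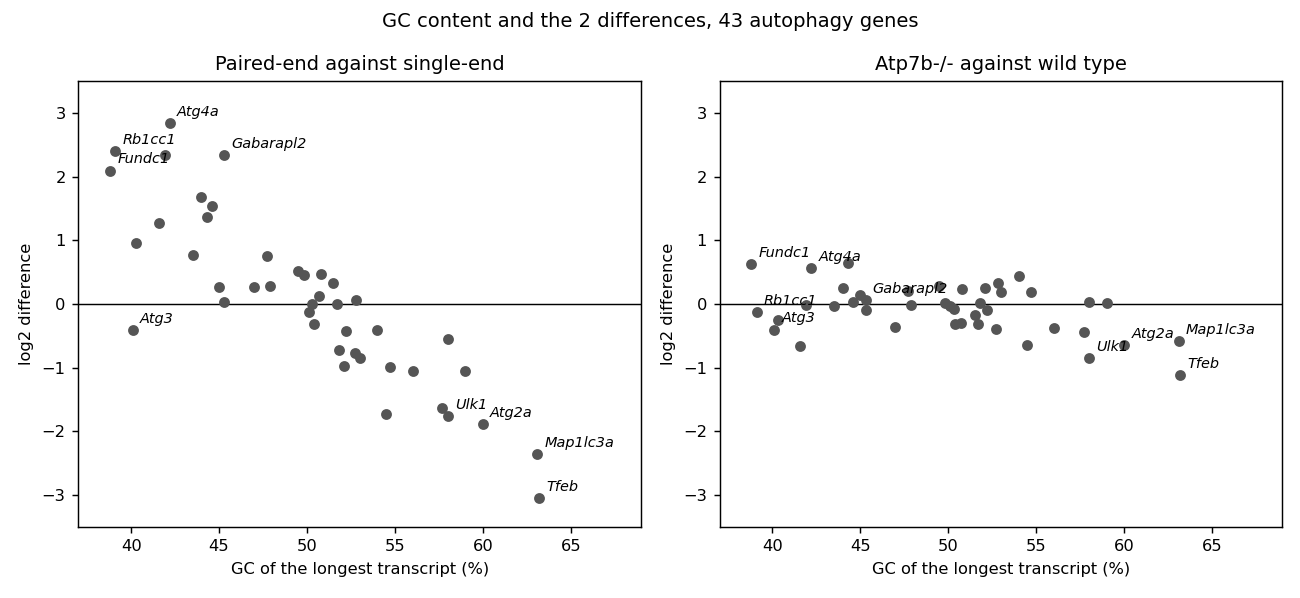
GC content of the longest transcript (x axis, %) and the log2 difference (y axis) between layouts, left, and between genotypes, right, where each point is 1 of the 43 autophagy genes and both panels share a scale. The layout difference falls from 2.84 for Atg4a, at low GC, to -3.05 for Tfeb, and the genotype difference stays between -1.11 and 0.65.

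By mean TPM over the 6 libraries the order was Gabarapl1 (609), Sqstm1 (315), Pink1 (188), Gabarap (163), Map1lc3a (141), Nbr1 (86.5), Bnip3 (72.4), Optn (71), Ulk1 (66.3) and Atg3 (62.9). The ranges over libraries of Sqstm1 (221 to 457), Pink1 (97.7 to 233), Gabarap (113 to 247) and Map1lc3a (39.3 to 309) overlapped, so that the order of these neighbours is not settled by the spread. Lowest were Atg16l2 (2.67), Atg4a (5.8), Atg10 (5.93) and Fundc1 (6.64). TPM across the 2 layouts carries the layout differences given above.

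Some of the 43 genes share sequence or exons with other genes. Atg4a, Bnip3, Bnip3l, Gabarapl2 and Map1lc3b have near copies elsewhere that are pseudogenes by annotation or by name. These copies match their transcript at 95% identity or more over at least 250 bases. For Bnip3, Bnip3l, Gabarapl2 and Map1lc3b they are annotated pseudogenes. Bnip3 also matched a gene annotated as long noncoding RNA (98.3% over 858 bases). The longest match was a stretch of 2115 bases at 99.3% between Atg4a and Atg4a-ps, which the annotation lists as protein-coding. Uvrag also matched genes that are not pseudogenes over at least 250 bases, among them the protein-coding Mettl6 (95.1% over 345 bases). No label or note says how reads that map to several places were counted, so the levels of all these genes are uncertain. Exons of 14 genes overlap those of another annotated gene, 7 of them a protein-coding gene on the opposite strand. The overlap was largest for Becn1 (43.9% of its exon bases, with Cntd1, which had 32 counts in all libraries together), and Atg4d shared 19.3% with Kri1 and Sqstm1 17.3% with Mrnip. Whether the counting used strand is not stated there either.

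Outside the 43 genes, 88 further genes of autophagy control, membrane supply, receptors and fusion were listed by role, of which 87 were tested. In edgeR's test 1 rose, 1 fell and 85 were not called. The 2 called genes were 2.3% of those tested, and the 11 with an unadjusted p under 0.05 were 12.6%, near the 2.49% and 14.5% of all genes, so the calls are described gene by gene and not as a property of the lists. Trp53inp1 rose and Fnip2 fell. The median log2 fold change over the 87 tested genes was -0.03. Trp53inp1, a p53-induced protein that binds LC3 (ENSMUSG00000028211), was at 13.6 and 17.1 CPM in the single-end wild type libraries and at 77.9 and 74.9 CPM in the single-end Atp7b-/- ones. In the paired-end libraries it was at 203 and 367 CPM, so the genotypes overlapped across layouts but not within them. It rose 3.53-fold (log2 fold change 1.82, SE 0.31, adjusted p = 0.0188), a call that was lost without wild type replicate 3 (adjusted p = 0.131).

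Fnip2, a partner of folliculin in the nutrient sensing that controls mTORC1 and TFEB (ENSMUSG00000061175), fell 2.38-fold. It was at 54.7, 64.7 and 49.7 CPM in wild type livers and at 20.5, 31.8 and 19.7 CPM in Atp7b-/- livers, with no overlap over the 6 libraries. Its difference between layouts was not called (log2 -0.23, adjusted p = 0.448). Its log2 fold change was -1.25 (SE 0.23, adjusted p = 0.0244). The call was lost without wild type replicate 1 or 2 or Atp7b-/- replicate 1 or 3 (adjusted p = 0.166, 0.0603, 0.0966 and 0.181). For its relative Fnip1 the change was -0.45 (adjusted p = 0.32), and for Flcn, which encodes folliculin, it was -0.65 (adjusted p = 0.363).

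Of the 31 tested genes of mTORC1 and AMPK control, Fnip2 fell and 30 were not called. The closest was Sesn2, a stress-induced inhibitor of mTORC1, at 5.76, 11.6 and 16.7 CPM in wild type livers and 23.1, 27.4 and 17.1 CPM in Atp7b-/- livers. Its ranges did not overlap, although only a small gap parted them, and its log2 fold change of 1.09 (SE 0.25) had an adjusted p of 0.0641. DESeq2 called it higher (adjusted p = 0.00876), as did edgeR's test without the filter on low counts (0.00084), without wild type replicate 3 (0.0347) and with the GC offset (0.0162). Sesn2 was called in 5 of the 17 alternative settings. Of the 6 edgeR fits that left out a library 1 called it, and their adjusted p ran up to 0.271. Ddit4, another inhibitor of mTORC1, stood at 1.16 (SE 0.38, adjusted p = 0.205). Of 6 genes of autophagy linked to p53, a list that shares Sesn1, Sesn2 and Ddit4 with the previous one, Trp53inp1 rose and 5 were not called. In the other 4 lists none was called: 14 other nucleation genes (lowest p for Trp53inp2 and Nrbf2, log2 fold changes -0.65 and 0.68), 18 other receptor and mitophagy genes (Tollip -0.50, Phb2 -0.49), 15 fusion genes (Vps39 0.42, Vps41 0.48) and 6 other transcription factor genes (Zkscan3 0.54, Foxo3 -0.52).

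**Figure D5:**
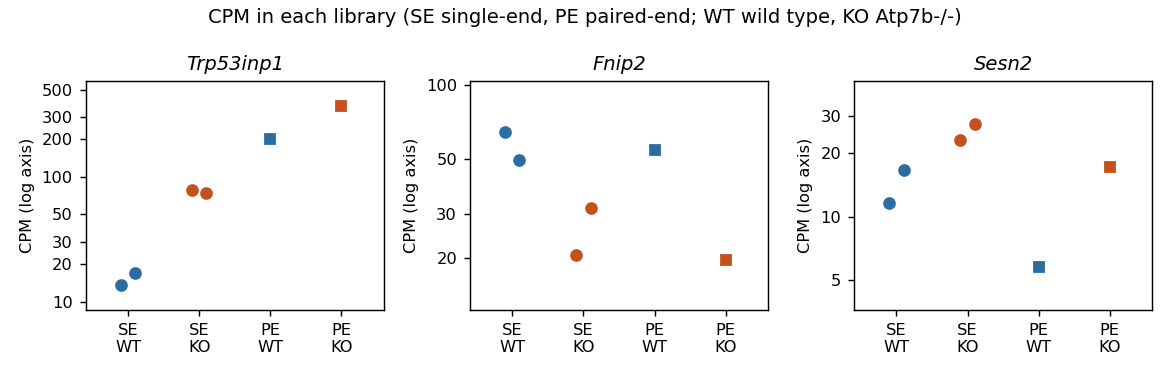
CPM (y axis, log scale) of Trp53inp1, Fnip2 and Sesn2 in each library, by layout and genotype on the x axis, where each point is 1 library. Trp53inp1 and Sesn2 lie higher and Fnip2 lower in Atp7b-/- than in wild type in both layouts.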

How the data were processed

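RNA-seq reads from 6 mouse liver libraries were counted per Ensembl gene. The authors deposited 1 table of raw counts that are not normalized. STAR 2.4, featureCounts and edgeR 3.8, with build GRCm38, are named per the submitters' processing notes. Which annotation release was used, whether strand was used, and how multi-mapping reads and read pairs were counted is not given in the labels or notes. Samples were grouped by labelled genotype, and replicate numbers follow the order of deposition.

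The genotype comparison used edgeR 4.0.16 (R 4.3.3), with TMM scaling, its expression filter set to at least 10 counts, a robust quasi-likelihood model of layout plus genotype, and significance by edgeR's quasi-likelihood test (Benjamini-Hochberg adjustment over 12988 genes, threshold 0.05). Intervals are 95%, and the script was tested on simulated data. Layout was a term because each layout includes wild type and Atp7b-/- libraries. Labelled sex follows genotype within each layout and was not a term in this model. A difference between labelled sexes can therefore remain in part in the genotype estimates. CPM used TMM-scaled totals, and TPM used GENCODE M21 exon lengths. DESeq2 1.42.0 and limma-voom (limma 3.58.1), other scalings and filters, other covariates, single-end libraries alone and leaving out each library were also run, and an offset for GC content (loess span 0.3) was added after the data were seen. The 43 genes and the other lists were chosen with earlier results of these data known. Named are all 43 genes, and in each other list the called genes and the 2 with the smallest p. Ddit4, Fnip1 and Flcn were named after their values were seen.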

Additional observations from a re-analysis of the deposited data

How the results depend on the processing

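The call of 0 higher members was the same under each of the 17 alternatives (12988 genes or, by setting, 12205 to 25130 tested). For lower members it was 3 with DESeq2 (Ulk1, Atg2a and Tfeb), 2 with no filter on low counts (Ulk1 and Tfeb) and 0 under the other alternatives. The number of genes called over all genes was 323, and it was 770 with DESeq2, 778 with the GC offset in DESeq2, 1116 with no filter, 126 in the single-end libraries alone, and 0 without the layout term or with labelled sex in its place, where edgeR gave 545 and 381 genes, and 0 of the 43 members, at an unadjusted p under 0.05. Leaving out 1 library gave 119 (without Atp7b-/- replicate 3) to 323, with 131 without wild type replicate 1 and 208 without Atp7b-/- replicate 1. The other pathway genes called higher were 1, and 2 with DESeq2, 3 with no filter, 2 with the GC offset, 3 with the GC offset in DESeq2 and 0 in the fits without layout. Those called lower were 1, and 2 with the GC offset in DESeq2, 0 in the single-end libraries alone and in the fits without layout, and 0 to 1 when 1 library was left out. Without wild type replicate 3 the 1 gene called higher was Sesn2 (adjusted p = 0.0347) and not Trp53inp1. The median over the members lay between -0.16 and 0.07. The causes were not tested. No paired analysis was possible because replicates were numbered by accession order, which pairs nothing. Depth limits Atg4a, Fundc1, Atg4c and Atg10 most, whose lowest libraries held 2, 12, 13 and 14 counts.

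Uncalled members close to 0 took the other sign in some settings, none of them with a call. With RLE size factors these were Atg16l2 -0.0090 and Pink1 -0.0098. With upper quartile scaling these were Pik3c3 0.026, Atg14 0.024, Bnip3l 0.045 and Stx17 0.013. With DESeq2 these were Pik3r4 -0.00085, Atg16l2 -0.0095 and Pink1 -0.0093. With limma-voom these were Atg16l2 -0.044. With no filter on low counts these were Pik3c3 0.011, Atg14 0.0053 and Bnip3l 0.025. With no layout term these were Atg5 -0.059, Atg16l2 -0.034, Gabarapl2 -0.099 and Pink1 -0.021. With labelled sex in place of layout these were Pik3r4 -0.0048, Atg5 -0.028, Atg16l2 -0.099 and Gabarapl2 -0.038. With the single-end libraries alone these were Rb1cc1 0.012, Pik3c3 0.17, Atg14 0.25, Atg2b 0.11, Map1lc3b 0.046, Bnip3l 0.15 and Pink1 -0.056. With the GC offset these were Atg5 -0.075, Atg16l2 -0.028 and Gabarapl2 -0.035. With the GC offset in DESeq2 these were Atg5 -0.075, Atg16l2 -0.028 and Gabarapl2 -0.052. When 1 library was left out, the range crossed 0 for Rb1cc1 -0.31 to 0.022, Pik3c3 -0.16 to 0.18, Atg14 -0.22 to 0.26, Atg2b -0.18 to 0.11, Map1lc3b -0.29 to 0.055, Bnip3l -0.20 to 0.16, Pink1 -0.057 to 0.054, Atg101 -0.072 to 0.13, Wipi2 -0.20 to 0.030, Atg5 -0.055 to 0.16, Atg16l2 -0.23 to 0.29, Gabarapl2 -0.25 to 0.33, Pik3r4 -0.16 to 0.22, Atg4c -0.10 to 0.61, Atg16l1 -0.26 to 0.044 and Stx17 -0.074 to 0.0091.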
